A study of Homo sapiens with 71 samples.

Results

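Water from the tributary site labelled ORNY was compared with purified water in HepG2, an established human line of hepatoma origin in which many hepatocyte genes are still expressed. The ORNY columns (4 libraries) and the control columns (8 libraries, CTRL 1 to CTRL 8) were taken by their labels, and of the 31012 entries in the part of the table held, the 6916 with enough counts were tested. Cells of combined flasks were divided among dishes, kept for 72 hours, and then grown for 48 hours in medium in which 75% of the volume was filtered surface water from ORNY, or from 1 of 15 other Great Lakes tributary sites, or purified water, which served as the control. All groups shared the same concentrated medium with serum, antibiotics and normocin, a further antimicrobial agent. RNA was measured by TempO-Seq, which joins pairs of probes lying side by side on a transcript and counts the joined products by sequencing. The dishes are called biological replicates in the labels but came from the same pool of cells of 1 line, so the p-values measure the spread between dishes. The protocol describes 16 control dishes, of which 8 libraries were used here. The table held ends in the symbols starting with RAI, and later symbols were not analysed here.

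Several regulatory circuits of hepatocyte-like cells are useful for reading the changes that follow. YAP and its partner TEAD form a transcription complex that responds to cell shape, attachment and crowding and drives ANKRD1, CCN1 and CCN2. HIF transcription factors switch on genes such as CA9 when oxygen is short, PPARA is a fatty acid sensor that drives mitochondrial fat oxidation, and metallothioneins are small cysteine-rich proteins that bind zinc, copper and cadmium and are switched on by MTF1. Iron-dependent prolyl hydroxylation links HIF to oxygen, and AHR is the receptor that induces CYP1A1 when it binds planar aromatic compounds.

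The promoters of a pair of genes lowered at ORNY in the YAP and TEAD list, and of a pair in the hypoxia list, are shown because their transcription factors are well known and the motif letters can be read in them. The sequences are the 250 bases before the RefSeq start site on GRCh38.p14, written 5′ to 3′ on the gene's strand, and the capitals mark GGAATG, the core bound by TEAD, or ACGTG, the core of the hypoxia response element, on either strand. ANKRD1 (chr10:90921088-90921337, minus strand) had 2 copies of GGAATG and CCN2 (chr6:131951373-131951622, minus strand) had 3, while 11.9% of 35116 promoters of this length had at least 1. CA9 (chr9:35673678-35673927, plus strand) had 1 ACGTG and LOX (chr5:122078260-122078509, minus strand) had 4, while 18.5% of promoters had at least 1. AJUBA had no GGAATG in its window, P4HA1 had 1 ACGTG and ANKRD37 had 3, of which a pair overlaps on the opposite strands. The promoters of CCN1, DLC1 and NDRG1, also called lower in these lists, were not examined. The printed promoters all hold the motif, so the shares over all promoters are no test of them. A match is a description of the letters only.
ANKRD1: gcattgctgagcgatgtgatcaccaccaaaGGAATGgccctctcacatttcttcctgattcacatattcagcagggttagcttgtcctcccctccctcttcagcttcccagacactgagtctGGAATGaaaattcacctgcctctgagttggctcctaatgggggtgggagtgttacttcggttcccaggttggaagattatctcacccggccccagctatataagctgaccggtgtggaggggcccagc
CCN2: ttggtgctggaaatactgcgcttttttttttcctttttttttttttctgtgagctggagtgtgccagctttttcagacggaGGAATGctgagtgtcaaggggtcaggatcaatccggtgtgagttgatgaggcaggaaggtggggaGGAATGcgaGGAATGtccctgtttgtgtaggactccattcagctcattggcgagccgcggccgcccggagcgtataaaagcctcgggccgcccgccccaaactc
CA9: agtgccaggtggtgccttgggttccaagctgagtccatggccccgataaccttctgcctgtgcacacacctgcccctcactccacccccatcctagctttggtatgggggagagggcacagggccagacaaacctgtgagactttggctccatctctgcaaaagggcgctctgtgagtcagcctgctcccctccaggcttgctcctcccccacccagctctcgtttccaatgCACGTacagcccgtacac
LOX: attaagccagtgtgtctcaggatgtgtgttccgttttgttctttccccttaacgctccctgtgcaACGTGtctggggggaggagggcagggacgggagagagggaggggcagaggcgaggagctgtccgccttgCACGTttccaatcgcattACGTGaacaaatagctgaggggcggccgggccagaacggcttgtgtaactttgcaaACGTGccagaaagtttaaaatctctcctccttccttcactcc

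The libraries were deep enough for genes of moderate level. In units of 1000000 counts, the ORNY libraries held 4.88 to 9.19 and the control libraries 8.18 to 14.5, and 8322 to 8630 features were detected at ORNY against 8531 to 9200 in the controls. The level of a gene is given in CPM, counts per 1000000 after TMM scaling, with SD over libraries. Of the hepatocyte markers, ALB, AFP, APOA1, APOB, AHSG, FGB and HNF4A were all detected, and none of these 7 was called. ALB, the main serum protein, averaged 57312 CPM at ORNY and 54234 CPM in the controls. Fibroblast markers summed to 44.6 to 61.5 CPM at ORNY and 37.9 to 61.4 CPM in the controls, endothelial markers to 2.47 to 4.18 CPM and 2.34 to 4.19 CPM, and squamous or other epithelial markers to 4.61 to 6.97 CPM and 3.59 to 7.66 CPM. Immune markers summed to 1147 to 1678 CPM at ORNY and 1637 to 2215 CPM in the controls, most of it LYZ, while PTPRC, MS4A1 and CD163 were at 0 in all 12 libraries. LYZ, lysozyme, averaged 1075 CPM at ORNY and 1599 CPM in the controls and was called lower (log2 change -0.57, edgeR adjusted p = 0.0238), and CD3D averaged 125 CPM and 124 CPM. These are bulk libraries, so fewer cells with a transcript and less RNA per cell cannot be told apart.

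ANKRD1, CCN2, LOX, C3 and IGFBP3 were among the genes lower at ORNY, and MT1M, AP1S3 and PYCR3 among those higher. In one edgeR quasi-likelihood model of 68 libraries with a mean per group, 283 of 6916 features had a Benjamini-Hochberg adjusted p under 0.05, here called (4.09%). At ORNY 100 were higher (1.45%) and 183 were lower (2.65%) than in purified water. These shares stand beside the counts of list members that follow, since a list whose share lies near them shows nothing about its members. The lists were chosen with earlier results of these data known, so a larger share is a description and no test. Most changes were small: the median log2 change was 0.48 for those called higher and -0.46 for those called lower, against 0.02 over all tested features, and 14 called features changed by 1 log2 unit or more, 4 of them higher. FAM72C had the largest fitted value of the calls, -7.55, which depends on the prior count of the fit and is no fold: it was at 0 in all 4 ORNY libraries and in 2 of the 8 controls, and at 3.74 to 5.74 CPM in the other 6. It belongs to a family of near-identical copies, so its counts are uncertain. Those called lower were the more abundant genes, with a median control level of 118 CPM, against 30.9 CPM for those called higher and 17.7 CPM over all tested features. The ORNY and control values did not overlap at all in 174 tested features (2.52%), of which 73 were called.

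**Figure D1:**
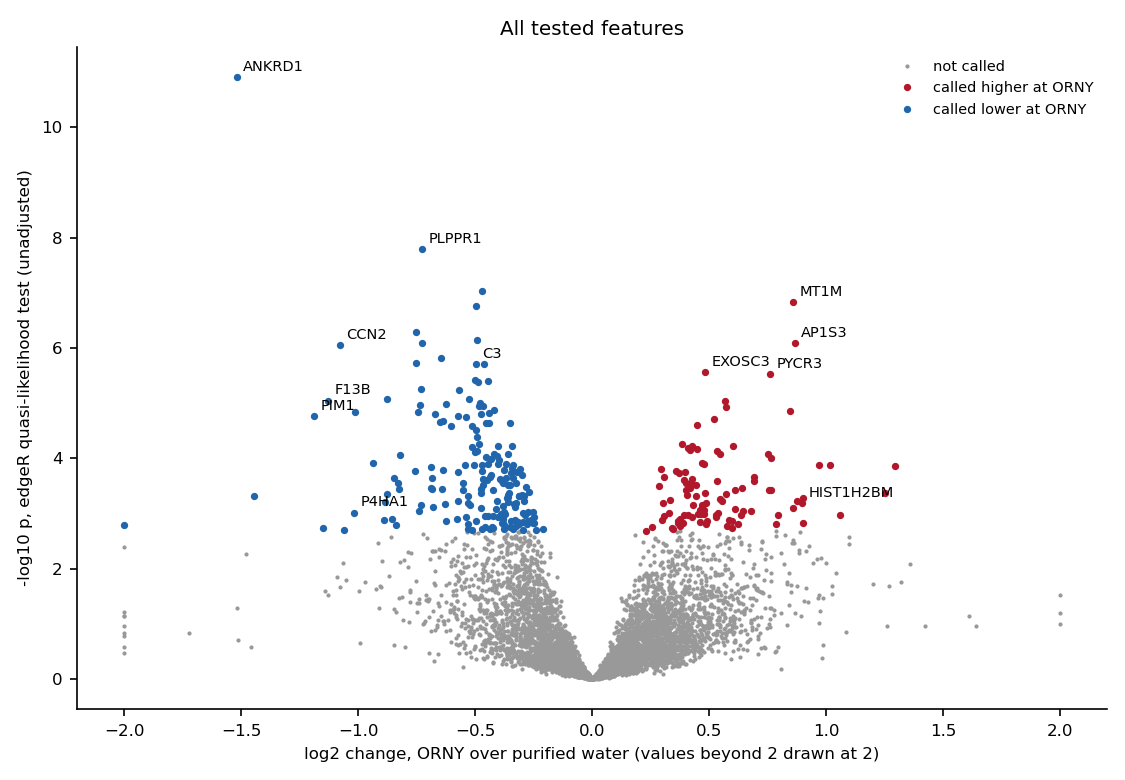
Each point is a tested feature, with the log2 change of ORNY over purified water on the x axis (values beyond 2 in size drawn at 2, FAM72C among them) and -log10 of the unadjusted p of edgeR's quasi-likelihood test on the y axis. Red marks the 100 features called higher and blue the 183 called lower. ANKRD1 stands at the top left with a log2 change of -1.52, and MT1M and AP1S3 lead on the right.

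The number of calls depended on which libraries entered the model. With all 71 libraries, that is with 3 libraries of other sites that stand apart added to the shared estimate of spread, 14 features were called (4 higher, 10 lower), and all 14 were among the 283. Of the added libraries VROH 2 held only 8872 counts with 1879 features detected, while CRMI 1 held 7300621 counts and SRMI 3 held 4310761. With the 12 ORNY and control libraries alone 243 were called, of which only 182 were among the 283. ORNY 4 stood apart from the other ORNY libraries and had the lowest total. In 162 of the 183 features called lower and in 86 of the 100 called higher it was the ORNY library nearest to the controls, against 51.3% of all features with a value below 0 and 51.0% of those above 0. The second axis of variation within the groups (23.7% of that variation) placed ORNY 4 at a score of -0.65 and ORNY 1 at 0.37, and its loadings had a correlation of 0.57 with the log2 change across 3334 features, which share these libraries; its part in the result was not tested. Without ORNY 4 there were 700 calls, 280 of them shared with the 283, and without ORNY 1, ORNY 2 or ORNY 3 there were 34, 125 and 32. Without CTRL 1, CTRL 3, CTRL 4 or CTRL 7 the calls higher numbered 58, 54, 63 and 54. Every one of the 283 kept its sign in each of these fits. Of 64 called genes named by rule, 11 stayed called without any single ORNY or control library: ANKRD1, CCN2, LOX, C3, IGFBP3, PLPPR1, PXDC1 and CCNB1IP1 among the lower, MT1M, AP1S3 and PYCR3 among the higher. The other named genes lost the call without at least 1 library. ANKRD1, CCN2, PLPPR1, PXDC1, MT1M, AP1S3 and PYCR3 were called in all 21 alternative fits.

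**Figure D2:**
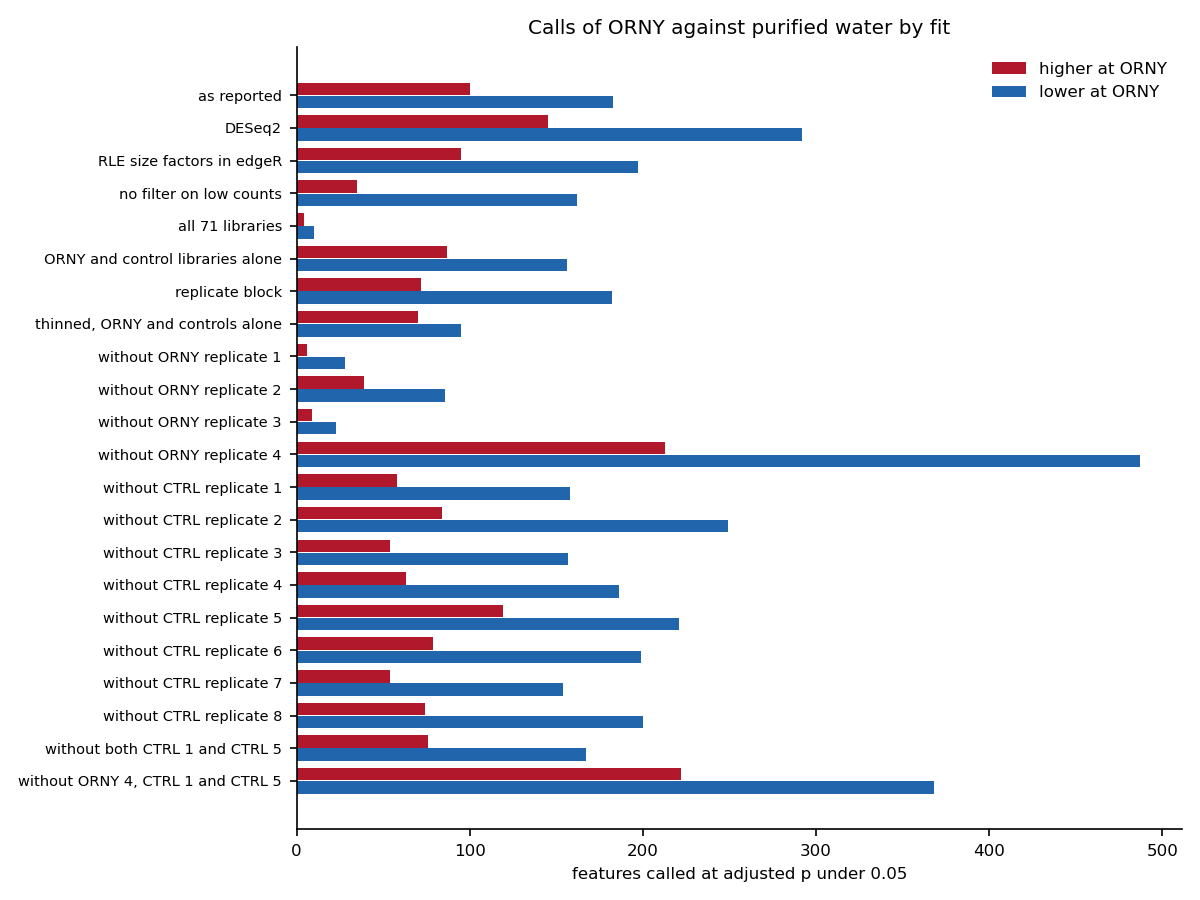
Bars count the features called higher (red) and lower (blue) at ORNY than in purified water in the reported model and in each alternative, at an adjusted p under 0.05. The bars run from 4 higher and 10 lower with all 71 libraries to 213 higher and 487 lower without ORNY 4.

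**Figure D3:**
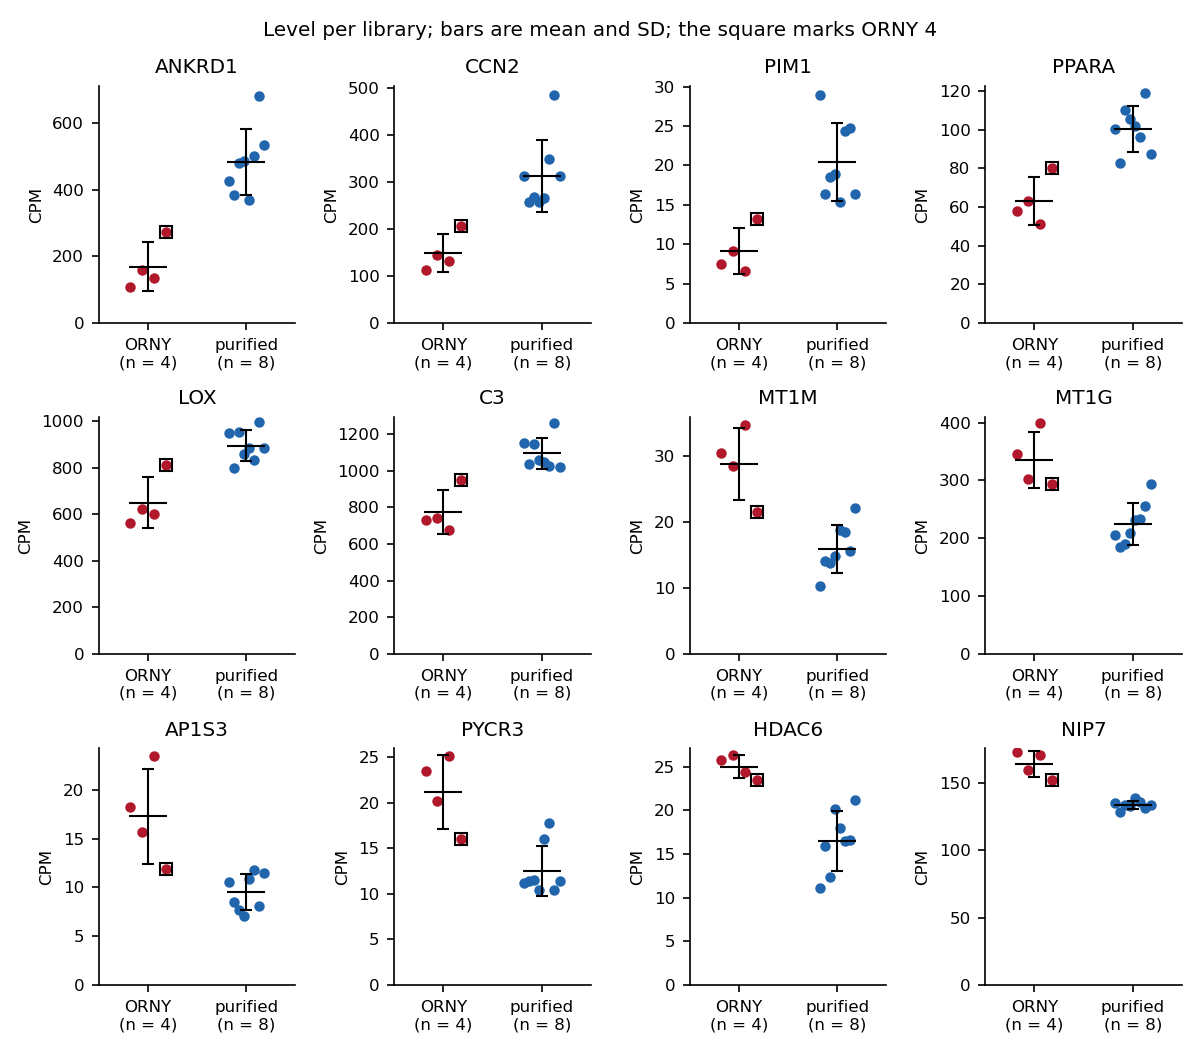
Each panel gives the level of 1 gene in CPM on a linear y axis from 0, with the 4 ORNY libraries at the left and the 8 purified water libraries at the right. Points are libraries, bars are the mean and SD, and the open square marks ORNY 4, which lies nearest to the controls in all 12 panels.

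ANKRD1 and CCN2 had the smallest p-values of 5 YAP and TEAD targets that were lower at ORNY. Of 13 tested members of the list, 5 were called lower, against 2.65% of all features, 8 did not pass and none was called higher. In the list 11 of 13 values were below 0, and the median log2 change was -0.34 against 0.02 over all tested features. ANKRD1, a nuclear ankyrin-repeat protein and a standard reporter of YAP activity (chr10:90912096-90921276, minus strand, GENCODE 29), had 107, 159, 136 and 274 CPM in the ORNY libraries, and 369 to 683 CPM in the controls with a median of 483. All 4 ORNY values lay below all 8 control values. The log2 change was -1.52 ± 0.18 (SE, adjusted p = 8.49e-08), the smallest p of all features. CCN2, a secreted matrix-associated growth regulator also called CTGF (chr6:131948176-131951373, minus strand), had 113, 145, 132 and 205 CPM at ORNY, and 258 to 485 CPM in the controls with a median of 290. Its groups did not overlap either, with a log2 change of -1.08 ± 0.20 (SE, adjusted p = 0.000608).

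The other 3 called members changed less or stood at low levels. AJUBA, a LIM-domain protein that restrains the LATS kinases upstream of YAP, had 58.1, 73.0, 59.6 and 77.0 CPM at ORNY, and a median of 99.2 CPM in the controls with a highest value of 105. The groups touched, since 1 control library lay within the ORNY range, and the log2 change was -0.50 ± 0.11 (SE, adjusted p = 0.00419). DLC1 averaged 159 CPM at ORNY and 204 CPM in the controls (log2 change -0.36, adjusted p = 0.00852). CCN1, a sister gene of CCN2, was at a low level, with 1.27 CPM at ORNY and 2.74 CPM in the controls (log2 change -1.06, adjusted p = 0.0496). LATS2, the kinase that holds YAP out of the nucleus and is itself a YAP target, had a value of -0.55 that did not pass (adjusted p = 0.113). F3 and NT5E were the 2 members with values above 0, at 0.33 and 0.15, and neither was called. Without ORNY 1 or without ORNY 3 the list had 2 members called lower, as it did with all 71 libraries.

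Hypoxia response genes had the same number of calls. Of 16 tested members 5 were lower, against 2.65% of all features, and none higher, 13 of 16 values were below 0, and the median log2 change was -0.25. LOX, a secreted amine oxidase that crosslinks collagen and elastin, had 564, 622, 603 and 811 CPM at ORNY, and 800 to 995 CPM in the controls with a median of 885. Only ORNY 4 reached into the control range (log2 change -0.46 ± 0.09, SE, adjusted p = 0.000959). CA9, a cell-surface carbonic anhydrase and a classical HIF target, had 64.4, 72.0, 68.6 and 101 CPM at ORNY, and a median of 114 CPM in the controls with a highest value of 162. ORNY 4 alone overlapped the controls again, and the log2 change was -0.64 ± 0.17 (SE, adjusted p = 0.0181). P4HA1, a subunit of the collagen prolyl hydroxylase, had 73.0, 80.0, 85.4 and 146 CPM at ORNY, and 105 to 263 CPM in the controls with a median of 198 (log2 change -1.02 ± 0.29, adjusted p = 0.0330). ANKRD37, an ankyrin-repeat HIF target, and NDRG1, a stress-induced gene of growth arrest, had log2 changes of -0.69 and -0.41 (adjusted p = 0.0111 and 0.0238). KDM3A, PDK1 and BNIP3, which are also HIF targets, had values of 0.46, 0.43 and 0.27 and were not called. Without ORNY 1, ORNY 2 or ORNY 3 the calls numbered 1, 2 and 1, and with all 71 libraries there were 0.

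Immediate early genes, which cells switch on within minutes of a growth signal, were lower in 3 of 20 tested members, against 2.65% of all features, and higher in none. PIM1, a serine kinase that promotes survival, had 7.53, 9.12, 6.62 and 13.2 CPM at ORNY, and 15.4 to 28.9 CPM in the controls with a median of 18.7. JUNB, an AP-1 transcription factor, had 17.6, 25.3, 22.1 and 30.6 CPM at ORNY, and 35.6 to 47.2 CPM in the controls with a median of 38.8. In both genes every ORNY library lay below every control library, with log2 changes of -1.19 ± 0.25 for PIM1 and -0.76 ± 0.19 for JUNB (SE, adjusted p = 0.00294 and 0.0122). JUND was also lower (log2 change -0.46, adjusted p = 0.0459). The other 17 did not pass, among them FOS at 0.15, EGR1 at 0.28, MYC at 0.14 and KLF4 at 0.79 (adjusted p = 0.0507), and the list median was -0.11. Without ORNY 1 or ORNY 3 none of the list was called, and with all 71 libraries 1 was.

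PPARA itself was lower, and with its targets and fat oxidation genes 3 of 19 tested members were lower, against 2.65% of all features, and none higher. PPARA had 58.1, 63.2, 51.0 and 80.3 CPM at ORNY, and 82.8 to 119 CPM in the controls with a median of 101. No ORNY library reached the lowest control, and the log2 change was -0.67 ± 0.14 (SE, adjusted p = 0.00292). ACAA2, the last enzyme of the beta-oxidation spiral, averaged 106 CPM at ORNY and 135 CPM in the controls (log2 change -0.35, adjusted p = 0.0454). The members not called numbered 16, including CPT1A at -0.39, PLIN2 at -0.12 and ANGPTL4 at -0.17, and the list median was -0.17. Without ORNY 1 the list had 1 call, without ORNY 3 it had 0, and with all 71 libraries it had 0.

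**Figure D4:**
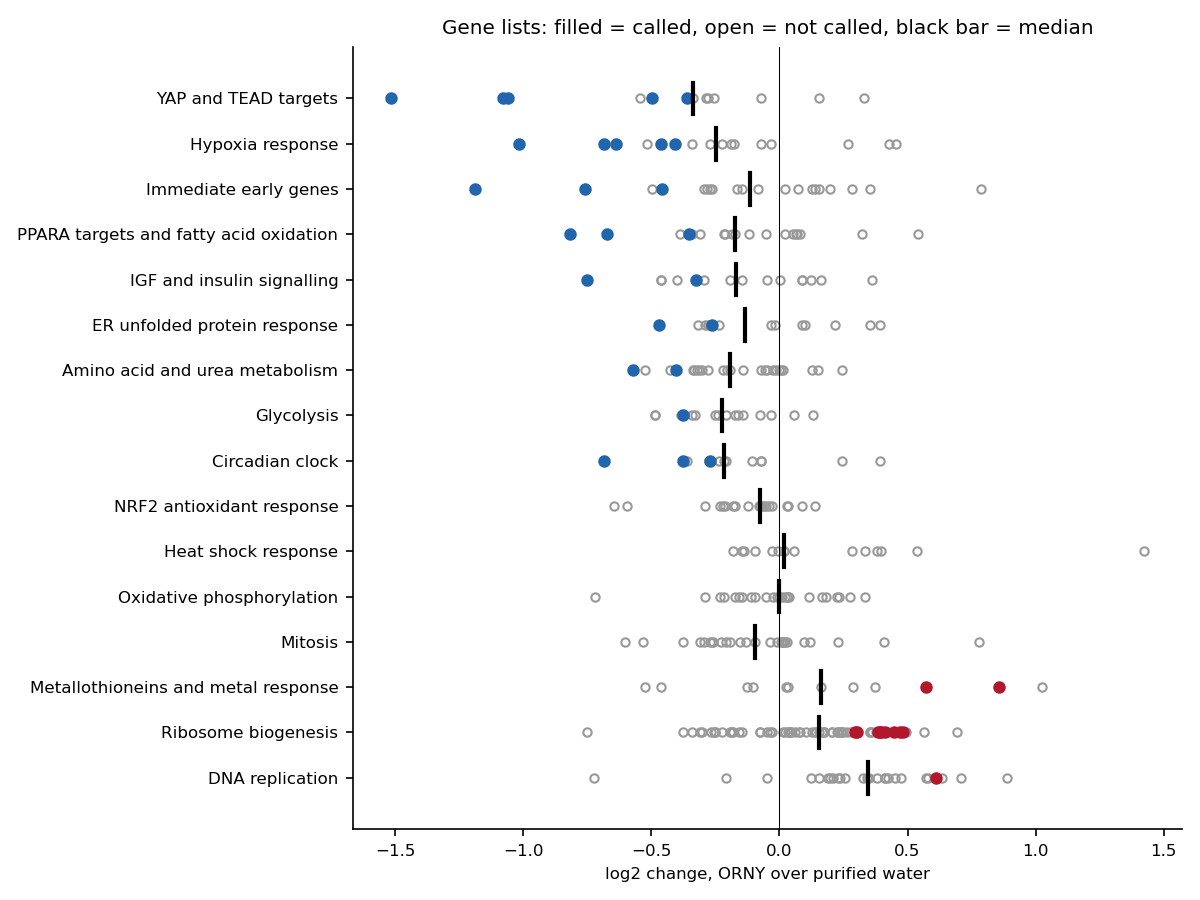
Each row is a gene list and each point a tested member, placed by its log2 change of ORNY over purified water on the x axis. Filled points were called (red higher, blue lower), open points were not, and the black bar is the list median. The YAP and TEAD row reaches farthest to the left, and the DNA replication row has the highest median, 0.35, with 1 member called.

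Single secreted proteins and metabolic enzymes of the hepatocyte were lower. IGFBP3, the main carrier of insulin-like growth factors in serum, had 183, 251, 156 and 325 CPM at ORNY, and 316 to 425 CPM in the controls with a median of 390 (log2 change -0.75 ± 0.14, SE, adjusted p = 0.000959). IGFBP2, another carrier, averaged 237 CPM at ORNY and 297 CPM in the controls without overlap (log2 change -0.33, adjusted p = 0.0156). These were the 2 calls among 16 tested IGF and insulin signalling genes, against 4.09% of all features called either way. C3, the central complement component, had 732, 743, 675 and 950 CPM at ORNY, and 1019 to 1262 CPM in the controls with a median of 1053. C3 did not overlap between the groups (log2 change -0.50 ± 0.09, adjusted p = 0.000959), and with CFB, complement factor B (log2 change -0.25, adjusted p = 0.0355), it gave the 2 calls among 24 tested secreted proteins, against the same 4.09%. GLUL, glutamine synthetase, averaged 102 CPM at ORNY and 151 CPM in the controls (log2 change -0.57, adjusted p = 0.00294). ALDH4A1, of proline breakdown, averaged 37.7 CPM and 49.6 CPM (log2 change -0.40, adjusted p = 0.0360). Both belong to the amino acid and urea list, in which 20 of 25 tested values were below 0 and no other member was called, so that its 2 calls of 25 stand against 4.09% of all features.

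The chaperone HSPA5, also called BiP, had 1175, 1236, 1091 and 1851 CPM at ORNY, and 1523 to 1988 CPM in the controls with a median of 1884. ORNY 4 lay inside the control range and the other 3 ORNY libraries below it, with a log2 change of -0.47 ± 0.10 (SE, adjusted p = 0.00263). HSPA5 and PDIA6, a disulphide isomerase (log2 change -0.26, adjusted p = 0.0388), were the 2 calls among 14 tested genes of the endoplasmic reticulum stress response, against 4.09% of all features. DDIT3, the stress factor CHOP, averaged 104 CPM at ORNY and 108 CPM in the controls and was not called (adjusted p = 0.832). CTSL, a lysosomal protease, and NPC1, the lysosomal cholesterol transporter, had log2 changes of -0.29 and -0.47 (adjusted p = 0.0399 and 0.0165), the 2 calls among 29 autophagy and lysosome genes, a count close to the 4.09% of all features and no result about that list.

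The metallothioneins MT1M and MT1G were higher at ORNY, but ORNY was not high among the sites in either. They were the 2 calls among 13 tested metallothionein and metal response genes, against 1.45% of all features called higher. MT1M (chr16:56632233-56633986, plus strand) had 30.5, 28.5, 34.7 and 21.5 CPM at ORNY, and 10.3 to 22.1 CPM in the controls with a median of 15.2. Only ORNY 4 lay within the control range, and the log2 change was 0.86 ± 0.14 (SE, adjusted p = 0.000235). MT1G (chr16:56666731-56668065, minus strand) had 345, 302, 399 and 294 CPM at ORNY, and 184 to 293 CPM in the controls with a median of 221, so the groups did not overlap (log2 change 0.57 ± 0.12, adjusted p = 0.00266). MT2A had 11.5, 13.3, 15.3 and 11.2 CPM at ORNY, and 6.06 to 10.4 CPM in the controls. Its groups did not overlap, yet its log2 value of 0.57 did not pass (adjusted p = 0.175), and MT1E had a value of -0.52 (adjusted p = 0.0903). These genes are near-identical copies of one another, so reads may be split between them and the values of single members are uncertain. Against the mean of the 15 other sites MT1M was at -0.16 and MT1G at -0.25, neither called (adjusted p = 0.420 and 0.0992). The control mean was the lowest of all 17 groups in both genes, and ORNY stood 10th from the lowest in MT1M and 7th in MT1G.

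Genes for making ribosomes and replicating DNA had values mostly above 0. The ribosome biogenesis list was put together after seeing the data and carries no test. With the list chosen this way, its counts support nothing. Of its 73 tested members 9 were called higher, against 1.45% of all features, and none lower, with 52 values above 0 and a median log2 change of 0.15. Over all tested features 53.3% of values were above 0. NOP56, a core protein of the box C/D snoRNP that methylates ribosomal RNA, had 1873, 1522, 1869 and 1378 CPM at ORNY, and 1060 to 1344 CPM in the controls with a median of 1202. No control reached the lowest ORNY library (log2 change 0.45 ± 0.12, SE, adjusted p = 0.0164). NIP7, a factor of 60S subunit assembly, had 173, 159, 171 and 152 CPM at ORNY, and 128 to 139 CPM in the controls with a median of 133, also without overlap (log2 change 0.29 ± 0.07, adjusted p = 0.0119). The exosome subunits EXOSC3 and EXOSC8, which trim ribosomal RNA precursors, were higher by 0.48 and 0.47 (adjusted p = 0.00126 and 0.0265). FTSJ3, IMP3, MRTO4, NOC4L and PAK1IP1 made up the rest, with log2 changes of 0.30 to 0.41. Without ORNY 1 or ORNY 3 the list had 1 call each, without ORNY 4 it had 12, without the filter on low counts 4, and with all 71 libraries 0.

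GINS4, a subunit of the replicative helicase, was the only call among 26 DNA replication genes against purified water, a count close to the 4.09% of all features and no result about the list. It had 19.6, 12.8, 17.4 and 10.9 CPM at ORNY, and 9.03 to 11.4 CPM in the controls with a median of 9.60 (log2 change 0.61 ± 0.16, SE, adjusted p = 0.0181). ORNY 1, ORNY 2 and ORNY 3 lay above all controls and ORNY 4 among them. Of the 26 values 23 were above 0 and the median was 0.35. GINS3, a partner of GINS4, and MCM10, a loading factor of the helicase, had values of 0.89 and 0.43 that just missed the threshold (adjusted p = 0.0523 and 0.0535). MKI67, a marker of cycling cells, averaged 54.0 CPM at ORNY and 60.0 CPM in the controls (adjusted p = 0.614), and none of 27 mitosis genes was called.

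Among the single genes with the largest changes and no overlap, AP1S3 led those higher. AP1S3, a small subunit of an adaptor complex of the Golgi (chr2:223751686-223838027, minus strand), had 18.2, 15.7, 23.5 and 11.84 CPM at ORNY, and 7.08 to 11.81 CPM in the controls with a median of 9.55 (log2 change 0.87 ± 0.16, SE, adjusted p = 0.000608). HDAC6, a cytoplasmic deacetylase of tubulin, had 25.8, 26.4, 24.4 and 23.5 CPM at ORNY, and 11.2 to 21.2 CPM in the controls with a median of 16.6 (log2 change 0.60 ± 0.14, adjusted p = 0.00711). The other named members of this set, LRTOMT, PIGW, PALM3, ACP2, MLLT6, MED22 and HSPE1-MOB4, were higher by 0.41 to 0.61 on the log2 scale. HSPE1-MOB4 is a read-through annotation that overlaps its neighbours, so its counts are uncertain.

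On the lower side, PLPPR1, a membrane protein of the lipid phosphatase-related family (chr9:101028709-101325135, plus strand), had 20.1, 20.1, 18.01 and 30.4 CPM at ORNY, and 30.8 to 40.3 CPM in the controls with a median of 36.9. All 4 ORNY values were below the lowest control, ORNY 4 narrowly so, and the log2 change was -0.73 ± 0.11 (SE, adjusted p = 5.64e-05). PXDC1 had 39.5, 50.1, 38.5 and 62.8 CPM at ORNY, and 69.5 to 91.3 CPM in the controls with a median of 76.2 (log2 change -0.73 ± 0.13, adjusted p = 0.000608). F13B, the carrier subunit of clotting factor XIII made in liver, had 3.35, 4.72, 2.56 and 7.30 CPM at ORNY, and 7.53 to 12.3 CPM in the controls (log2 change -1.13 ± 0.23, adjusted p = 0.00251). CCNB1IP1, a ubiquitin ligase that binds cyclin B, averaged 35.1 CPM at ORNY and 64.5 CPM in the controls (log2 change -0.88, adjusted p = 0.00251). IFITM1, an interferon-induced membrane protein, was lower (log2 change -0.74, adjusted p = 0.0317), while IFI6, another interferon-induced gene, was higher by 0.52 (adjusted p = 0.00318), and these were the 2 calls among 19 interferon response genes, against 4.09% of all features.

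Genes often read as signs of chemical exposure were named whatever their values or as calls of their lists. CYP1A1 had 47.3, 82.7, 46.7 and 131 CPM at ORNY, and 57.3 to 97.1 CPM in the controls with a median of 77.0. The ORNY libraries spanned the control range on both sides, and the log2 value was 0.01 ± 0.38 (SE, adjusted p = 0.997). AHR, its receptor, was lower without overlap, with 25.0 CPM at ORNY and 32.6 CPM in the controls (log2 change -0.38, adjusted p = 0.0411). HMOX1, haem oxygenase, averaged 27.1 CPM at ORNY and 26.5 CPM in the controls, and none of 20 tested genes of the NRF2 antioxidant response was called. None of 15 heat shock genes and none of 17 cholesterol synthesis genes was called. With 4.09% of all features called, lists of this size would hold about 1 call or none, so these zeros show nothing about the lists. CDKN1A, the p53 target p21, was at a low level, 0.92 CPM at ORNY and 1.43 CPM in the controls, and not called (adjusted p = 0.349), while GADD45A, another p53 target, was lower, at 70.0 CPM at ORNY and 97.9 CPM in the controls (log2 change -0.48, adjusted p = 0.00710). ASNS, asparagine synthetase of the ATF4 response, ranged widely in both groups and had a value of 0.40 (adjusted p = 0.647), and PSAT1, the serine synthesis enzyme of the same list, was higher by 0.54 (adjusted p = 0.0330).

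Set against the other waters rather than against purified water, ORNY had more calls. The counts differ in precision, since 56 libraries of other sites entered this contrast, against 8 of purified water. The larger count therefore does not show that ORNY lay nearer to purified water than to the other sites. In the same model 961 of 6916 features were called against the unweighted mean of the 15 other sites (13.9%), 511 higher (7.39%) and 450 lower (6.51%). The ORNY mean lay above all 15 other site means in 218 of the called features and below all 15 in 215. Over all 6916 tested features it lay above all 15 in 445 and below all 15 in 434. Among 16 sites some site is highest and some site lowest in nearly every feature. These counts alone therefore mark nothing particular to ORNY. The called features were selected by this same contrast, so their 2 counts carry no further support. Without ORNY 1, ORNY 2 or ORNY 3 the calls numbered 211, 509 and 199, and with all 71 libraries there were 199. This comparison uses the same ORNY libraries as the one with purified water.

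PYCR3, an enzyme of proline synthesis (chr8:143603913-143609773, minus strand), had the highest mean of all 17 groups at ORNY. It had 23.5, 20.2, 25.1 and 16.0 CPM there, against site means of 6.56 to 18.5 CPM at the 15 other sites (log2 change 0.92 ± 0.12, SE, adjusted p = 1.13e-06) and 10.5 to 17.8 CPM in the control libraries (log2 change 0.76 ± 0.15, adjusted p = 0.00127). The next PYCR3 mean was 18.5 CPM at SRMI, within the SD of the ORNY libraries (21.2 ± 4.04 CPM). GPD1, the cytosolic glycerol-3-phosphate dehydrogenase, had 23.5, 16.5, 18.8 and 13.6 CPM at ORNY, against other site means of 4.25 to 21.0 CPM (log2 change 0.89 ± 0.14, adjusted p = 2.61e-05) and a control median of 11.5 CPM (log2 change 0.64, adjusted p = 0.0178). Only the site CRMI had a higher GPD1 mean, but ORNY was not alone. Within the SD of the ORNY libraries (18.1 ± 4.19 CPM) lay CRMI at 21.0 CPM, SRMI at 17.7 CPM and MAWI at 16.8 CPM. So did IHIN at 15.6 CPM, MROH at 15.1 CPM and GRMI at 14.5 CPM. The remaining sites were lower, down to 4.25 CPM at LRMN. HAMP, the iron hormone hepcidin, had 33.4, 17.9, 33.6 and 20.5 CPM at ORNY, and 16.4 to 28.2 CPM in the controls. It was called against the other sites (log2 change 0.83 ± 0.16, adjusted p = 0.000213) and not against purified water (log2 value 0.33 ± 0.19, adjusted p = 0.359). The mean of the other sites includes LRMN at 1.28 CPM and BRWI at 5.18 CPM, both far below the next lowest, GRMI at 13.9 CPM. The HAMP mean at VROH, 26.5 CPM, was slightly above that at ORNY, 26.3 CPM.

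Further genes had an ORNY mean outside the range of the other site means. MGST1, a membrane glutathione transferase, MORN1, HSPBP1, a co-chaperone that binds HSP70, ABHD16A, a lipid hydrolase, and the histone gene HIST1H2BM were higher than the mean of the other sites by 0.90, 1.05, 0.83, 0.84 and 0.95 on the log2 scale. MGST1 averaged 227 ± 63.8 CPM at ORNY (SD, n = 4) and 192 CPM at MAWI. MORN1 averaged 39.2 ± 18.2 CPM at ORNY and 36.9 CPM at SRMI. At MROH the means were 16.4 CPM for HSPBP1 and 11.3 CPM for ABHD16A, against 19.9 ± 3.75 CPM and 11.8 ± 5.29 CPM at ORNY. HIST1H2BM averaged 9.73 ± 3.22 CPM at ORNY and 7.58 CPM at CRMI. In each gene the gap to the next site was smaller than the SD of the ORNY libraries. Against purified water HSPBP1 and HIST1H2BM were called and MGST1, MORN1 and ABHD16A were not (adjusted p = 0.0686, 0.181 and 0.0826). KIAA1958, F13B, FRAS1, P4HA1, PIGN and CARMIL1 had the lowest mean of the 16 sites and were lower than the mean of the others, with log2 changes of -0.77, -1.06, -0.84, -0.83, -0.80 and -0.77. Their nearest neighbours were close. KIAA1958 averaged 58.9 ± 20.01 CPM at ORNY (SD, n = 4) and 59.2 CPM at MAWI, P4HA1 96.2 ± 33.9 CPM at ORNY and 99.4 CPM at SRMI, and F13B 4.48 ± 2.08 CPM at ORNY and 4.83 CPM at MAWI. FRAS1 averaged 5.22 ± 1.24 CPM at ORNY and 5.67 CPM at IHIN, and CARMIL1 4.14 ± 1.14 CPM at ORNY and 4.63 CPM at IHIN. In these 5 the gap to the next site was smaller than the SD of the ORNY libraries, and in PIGN it was larger, at 4.13 ± 0.37 CPM at ORNY and 5.28 CPM at IHIN. The spread at IHIN was not set beside that gap. PIGN also lost its call against purified water in 12 of the 21 alternative fits. Of the 26 DNA replication genes 10 were called higher than the other sites, against 7.39% of all features, and none lower, with a median log2 value of 0.38. Without ORNY 1 or ORNY 3 that count was 2 and 3, and with all 71 libraries it was 4. In GINS4, a member of the list, ORNY averaged 15.2 ± 4.03 CPM, SRMI 14.2 CPM and IHIN 12.4 CPM. The lowest site in GINS4 was LRMN at 4.95 CPM. ORNY was thus not alone in this gene, and the site means of the other members are not given here.

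ANKRD1 and CCN2 were called lower than the mean of the other sites as well (log2 changes -1.04 and -0.82, adjusted p = 2.61e-05 and 0.000801), but ORNY was not alone there. From the lowest, the ANKRD1 means ran SRMI 145 ± 27.5 CPM (SD, n = 3), MAWI 152 ± 36.7 CPM (n = 4), ORNY 169 ± 73.3 CPM (n = 4) and CRMI 173 ± 4.03 CPM (n = 3), neighbours that did not differ beyond their spread. Purified water stood 10th at 483 ± 99.0 CPM (n = 8), and FRWI was the highest at 729 ± 119 CPM (n = 4). In CCN2 ORNY was 5th from the lowest and purified water again 10th. In CA9 ORNY had the lowest mean of the 17, at 76.5 CPM, next to CRMI at 77.1 CPM, and in PPARA it was also the lowest, at 63.1 CPM, next to SRMI at 67.9 CPM.

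**Figure D5:**
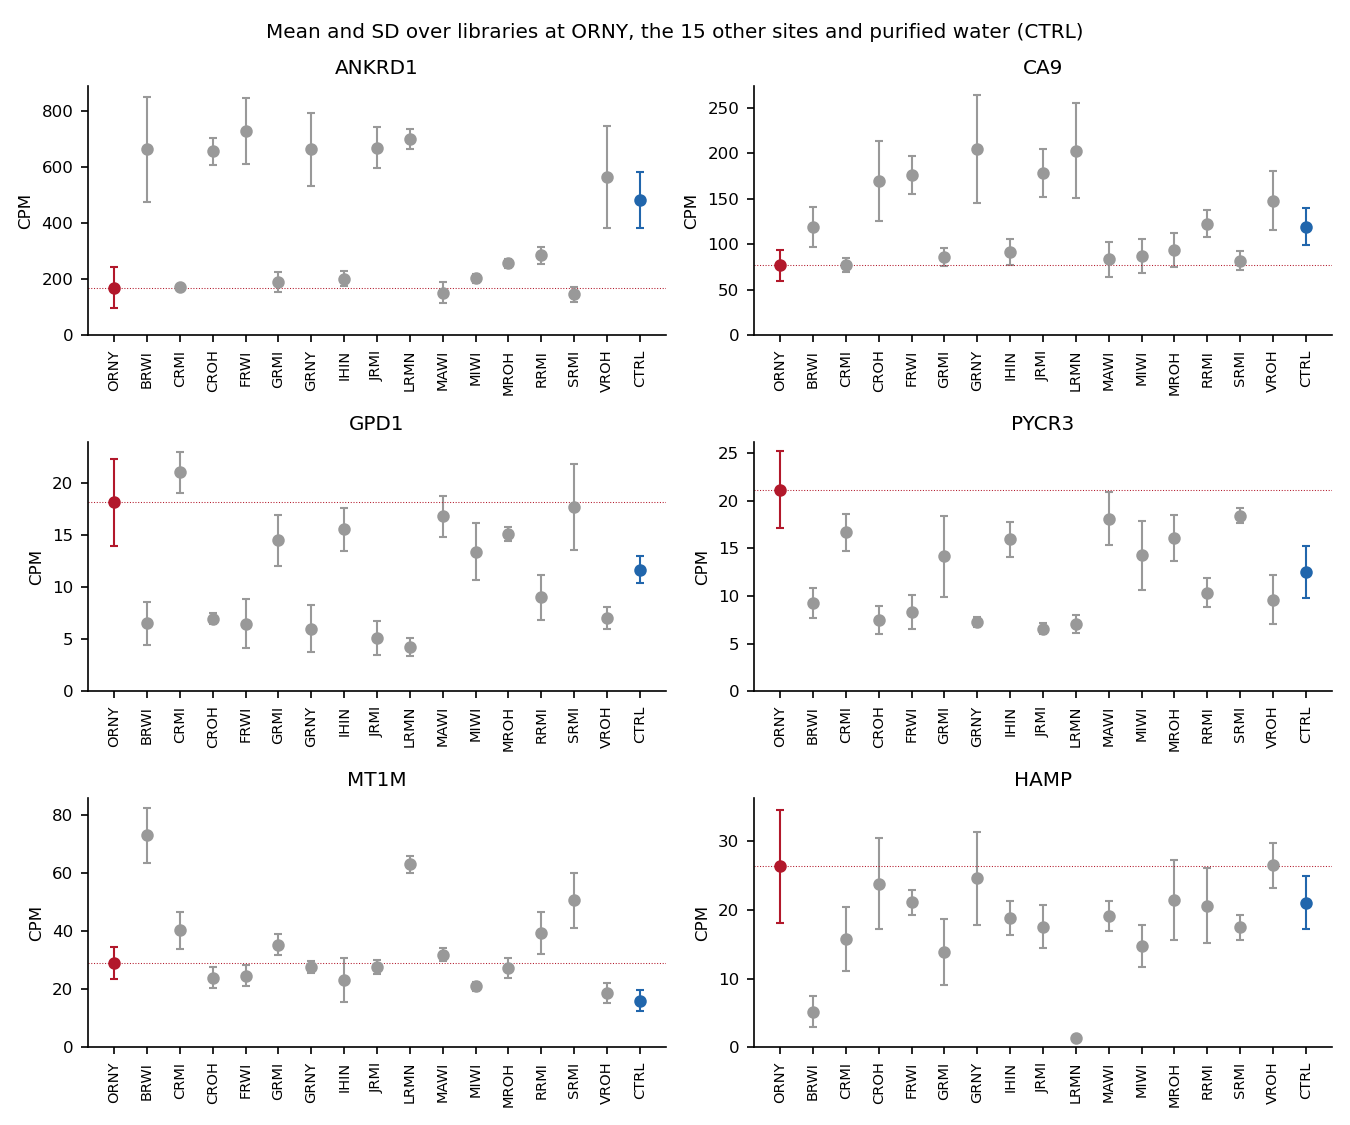
Means in CPM with SD over libraries for 6 genes at ORNY (red, leftmost), the 15 other sites (grey) and purified water (CTRL, blue, rightmost), with a dotted line at the ORNY mean. ORNY is low with a group of other sites in ANKRD1 and CA9, high with some of the other sites in GPD1 and highest in PYCR3, and in the middle in MT1M, where CTRL is lowest.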

How the data were processed

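Gene expression was measured by TempO-Seq in HepG2 cells, and the authors deposited one table of expected counts (estimated read counts) per gene and library. Per the submitters' processing notes the tools include Salmon and the genome build is GRCh38; the sources used here do not state versions, probe positions or any scaling step. The table's name calls the values normalized, but in each ORNY and control library 91.9% to 93.7% of the values below 20 were whole multiples of what 1 read is worth (tolerance 0.02), so they were rounded and used as counts. ORNY columns carry their sample's label, and control columns, named CONTROL, were joined to CTRL by number.

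Counts were fitted with edgeR 4.0.16 in R 4.3.3: TMM scaling, filterByExpr with a minimum count of 10, and the quasi-likelihood test in one model with a mean per group over 68 of 71 libraries (51 residual degrees of freedom, common biological coefficient of variation 0.199). The 3 libraries left out (VROH 2, CRMI 1, SRMI 3) belong to other sites and were named as standing apart by earlier results of these data. Benjamini-Hochberg adjustment was over all 6916 tested features and calls are at an adjusted p under 0.05. SE are from the test's F value. The procedure was tested on simulated data. No 2 ORNY libraries and no 2 control libraries were duplicates: the chi-square of counts per degree of freedom was at least 8.07 for every pair within either group. Pairs across groups and libraries of other sites were not checked.

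Alternatives were DESeq2 1.42.0, RLE size factors, no filter, all 71 libraries, ORNY and controls alone, thinning to equal totals, the replicate number as a block, and leaving out each library. Leaving out CTRL 1 and CTRL 5, with or without ORNY 4, was added once the data had been seen. GENCODE 29 (GRCh38) gave the gene positions and RefSeq (GRCh38.p14) the promoters.

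The comparison, the gene lists and the rule for named genes were chosen with earlier results of these data known. Named were the 12 largest rises and 12 largest falls among calls without overlap and with a mean of at least 5 CPM, up to 3 calls per list by p, the 6 largest calls each way against the other sites outside their range, and 14 genes whatever their values. Other list members, CCN1, DLC1, NDRG1, FAM72C and the ribosome and clock genes among them, were named after their values were seen. Lists are described by counts and medians, with no test. Some gene results that the rule selects are withheld and not reported here.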

Additional observations from a re-analysis of the deposited data

Results flagged for a closer look

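In 154 sets of values (77 named genes, ORNY and control libraries apart) a single library lay far from the rest in 14; chance flags about 1 in 20 such groups. In 7 of these the library was ORNY 4. ALDH4A1 had 54.5 CPM in ORNY 4, CDKN1A 1.18 CPM, P4HA1 146 CPM, PDIA6 945 CPM, PEG3 24.9 CPM, PGAM1 130 CPM and PLPPR1 30.4 CPM, each the highest of the 4 ORNY values and, in the genes called lower, on the side of the controls. GADD45A had 58.6 CPM in ORNY 1, below the other ORNY libraries.

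Among the controls CTRL 7 was highest in CA9 at 162 CPM and in CCN2 at 485 CPM. CTRL 5 was lowest in ANKRD37 at 231 CPM and highest in IFI6 at 49.1 CPM, CTRL 2 was lowest in HSPA5 at 1523 CPM, and CTRL 1 was highest in MED22 at 24.0 CPM. CA9, CCN2 and HSPA5 were still called lower at ORNY with these libraries left out in turn.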

How the results depend on the processing

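The signs of the 283 calls held in every alternative that tested them, while the number of calls did not. DESeq2 called 437 features, 292 of them lower. Without the filter on low counts 35 were called higher and 4 ribosome biogenesis genes. With all 71 libraries there were 14 calls (4 higher, 10 lower), 199 against other sites (118 higher, 81 lower), 2 in the YAP and TEAD list, 1 immediate early gene, 0 each in the hypoxia, PPARA and ribosome lists, and 4 DNA replication genes against other sites; at an unadjusted p under 0.05 that fit had 675 features. Thinned to equal totals, ORNY and controls alone gave 165 calls (95 lower), 3 in the YAP and TEAD list and 1 in the PPARA list. Without ORNY 4, CTRL 1 and CTRL 5 there were 590 calls (222 higher, 368 lower). The cause of these shifts was not tested.

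Leaving out 1 library gave 32 to 700 calls (6 to 213 higher, 23 to 487 lower), and 199 to 1386 against other sites (98 to 637 higher, 90 to 749 lower). The lists ranged from 2 to 7 for YAP and TEAD, 1 to 5 for hypoxia, 0 to 4 for PPARA, 0 to 4 for immediate early genes, 1 to 12 for ribosome biogenesis and 2 to 10 for DNA replication against other sites.

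Same-numbered ORNY and control libraries had correlated deviations of 0.43, 0.58, 0.13 and -0.07. Pairing was taken only where every such value is over 0.1, which the last was not. ORNY 2 correlated more with CTRL 4 (0.64) than with CTRL 2, so the samples are treated as sharing only a number. With the replicate block 254 features were called (72 higher, 182 lower), 188 of them shared with the 283. Of the 64 named calls 54 were lost with all 71 libraries and 17 under the replicate block. The 17 were ACAA2, ACP2, ALDH4A1, AREG, CEBPA, CTSL, FRAS1, HSPE1-MOB4, IFITM1, JUNB, MED22, P4HA1, PALM3, PGAM1, PIGN, PIGW and PSAT1. The cause was not tested. The precision rests on 4 ORNY dishes of 1 cell line.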

Other observations

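Genes of the circadian clock, a list put together after seeing the data, were lower in 3 of 13 tested members, against 2.65% of all features, and higher in none. With the list chosen this way, the count supports nothing. DBP, a clock-output transcription factor, had 3.98, 4.18, 2.56 and 3.16 CPM at ORNY, and 4.57 to 6.97 CPM in the controls with a median of 5.55, with no overlap (log2 change -0.68 ± 0.18, SE, edgeR adjusted p = 0.0181). NR1D2, the repressor REV-ERB beta, averaged 26.4 CPM at ORNY and 34.2 CPM in the controls (log2 change -0.38, edgeR adjusted p = 0.0436), and HLF, a relative of DBP, 218 CPM and 263 CPM (log2 change -0.27, edgeR adjusted p = 0.0190). ARNTL and CLOCK, the positive arm of the clock, had values of -0.11 and 0.39 and were not called. ORNY 4 was the highest ORNY library in NR1D2 and HLF, and not in DBP.

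A few regulators and transporters outside these groups also passed. CEBPA, a hepatocyte transcription factor, averaged 44.4 CPM at ORNY and 31.9 CPM in the controls (log2 change 0.48, edgeR adjusted p = 0.0344). FKBP5, a co-chaperone induced by glucocorticoids, averaged 61.0 CPM and 46.6 CPM (log2 change 0.39, edgeR adjusted p = 0.0411). AREG, an EGF receptor ligand, had 15.8, 12.1, 18.4 and 6.32 CPM at ORNY and 6.93 to 10.1 CPM in the controls, with ORNY 4 below all of them (log2 change 0.64, edgeR adjusted p = 0.0347). ACO1, the iron regulatory protein and cytosolic aconitase, averaged 68.1 CPM and 89.8 CPM (log2 change -0.40, edgeR adjusted p = 0.0107). POR, the electron donor of cytochromes P450, averaged 188 CPM and 229 CPM (log2 change -0.28, edgeR adjusted p = 0.0174), and APOA2, a lipoprotein component, 15336 CPM and 19272 CPM (log2 change -0.33, edgeR adjusted p = 0.0388). Each of these 6 lost its call when ORNY 1 was left out.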
